A study of Mus musculus with 6 samples.

Results

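The Toll-like receptor and lipopolysaccharide (LPS) sensing genes, through which cells detect microbial molecules, were followed in inguinal white adipose tissue, the fat depot of the groin. They were fixed by gene symbol, as Lbp, Cd14, Ly96, Tlr4, Tlr2, Tlr1, Tlr3, Tlr7, Nod1 and Myd88, and all 10 had a row among the 25894 Ensembl gene identifiers of the deposited table. Fat was taken from 6 female C57BL/6N mice, with 1 RNA sequencing library per mouse. Their age is given as 15 weeks, without saying whether at the start or at collection. In the SF 8w-SR 2w group, 3 mice had their sleep fragmented for 8 weeks and were allowed to recover for 2 weeks, and the Control group held 3 mice labelled control. All mice were fasted for 10 hours before collection, and neither group carried a transgene or drug by the labels. The comparison asks which of these transcripts still differed from controls after the 2 weeks of recovery. No library was made at the end of fragmentation, so the fragmentation and the recovery cannot be told apart.

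In LPS sensing, the carrier protein LBP lifts LPS out of bacterial membranes, CD14 receives it, and MD-2 (encoded by Ly96) presents it to the receptor TLR4. TLR2 binds bacterial lipopeptides as a pair with TLR1 or TLR6, TLR3 and TLR7 read double-stranded and single-stranded RNA inside endosomes, and NOD1 detects peptidoglycan fragments in the cytosol. The adaptor MYD88 carries the signal of the Toll-like receptors named here except TLR3, toward the transcription factor NF-kB. In fat, macrophages carry much of this machinery, and adipocytes also make TLR4 and LBP.

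The 6 libraries held between 15610201 and 19703569 reads, recovered from the deposited values, which are read counts divided by 1 factor per library and are called normalised reads here. The 15 adipocyte marker genes summed to 602549 to 985205 normalised reads in SF 8w-SR 2w mice and 523467 to 829876 in Control mice. These sums do not tell fat depots apart. Markers of B and plasma cells separated the libraries within both groups. Their 19 genes summed to 11902, 43652 and 10154 normalised reads in SF 8w-SR 2w mice 1 to 3, against 8288, 104798 and 34610.5 in Control mice 1 to 3. Among the genes listed at 0 were Pax5, Cr2 and Cxcr5 in SF 8w-SR 2w 1, Blk and Fcer2a in SF 8w-SR 2w 3, and Pax5, Fcer2a and Cxcr5 in Control 1. Controls 2 and 3 also differed from the other 4 libraries in base composition, with a Spearman rho across genes between a library's deviation and GC content of -0.27 in both, and of 0.13 to 0.37 in the others. Genes are not independent replicates, so these values describe the libraries. Controls 2 and 3 were likewise low in mammary epithelium markers, 13 of 13 of which were higher in SF 8w-SR 2w mice, with sums of 30157 to 42405 normalised reads in SF 8w-SR 2w mice and 10526 to 44700 in Control mice. They were also low in skin keratinocyte markers, 8 of 9 of which were higher, with sums of 3131 to 5128 in SF 8w-SR 2w mice and 937 to 4005 in Control mice. Tlr4, Tlr2 and Tlr7 were highest in these 2 libraries, and the part of mammary and skin tissue in their levels was not tested.

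No sensing gene differed between the groups after adjustment over all genes. Genes averaging 1 normalised read or more numbered 22290, and limma called 0 of them at a false discovery rate of 0.05, which is 0% of genes, and 0 of the 10. The smallest adjusted p over all genes was 0.697. The level in SF 8w-SR 2w mice was lower on the log2 scale for 7 of the 10 and higher for 3, with a median log2 difference of -0.33, while the median over all genes tested was 0.02. At an unadjusted p under 0.05, Lbp was the 1 gene higher and Tlr4 the 1 gene lower in SF 8w-SR 2w mice, against 3.24% and 2.14% of all genes in the same directions. The groups overlapped for each of the 10 genes, while 8.59% of all genes had groups that did not overlap, 5.02% with all 3 SF 8w-SR 2w mice above and 3.58% with all 3 below the Control mice. edgeR and DESeq2 on recovered reads also called 0 of the 10, with 4.57% and 5.61% of all genes at an unadjusted p under 0.05. limma-voom with quality weights called 0 of the 10 and 0% of all genes, but had 24% of all genes at an unadjusted p under 0.05 and a limma adjusted p of 0.0903 for Tlr4. In whole tissue, fewer cells of a type and less RNA per cell cannot be told apart.

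**Figure D1:**
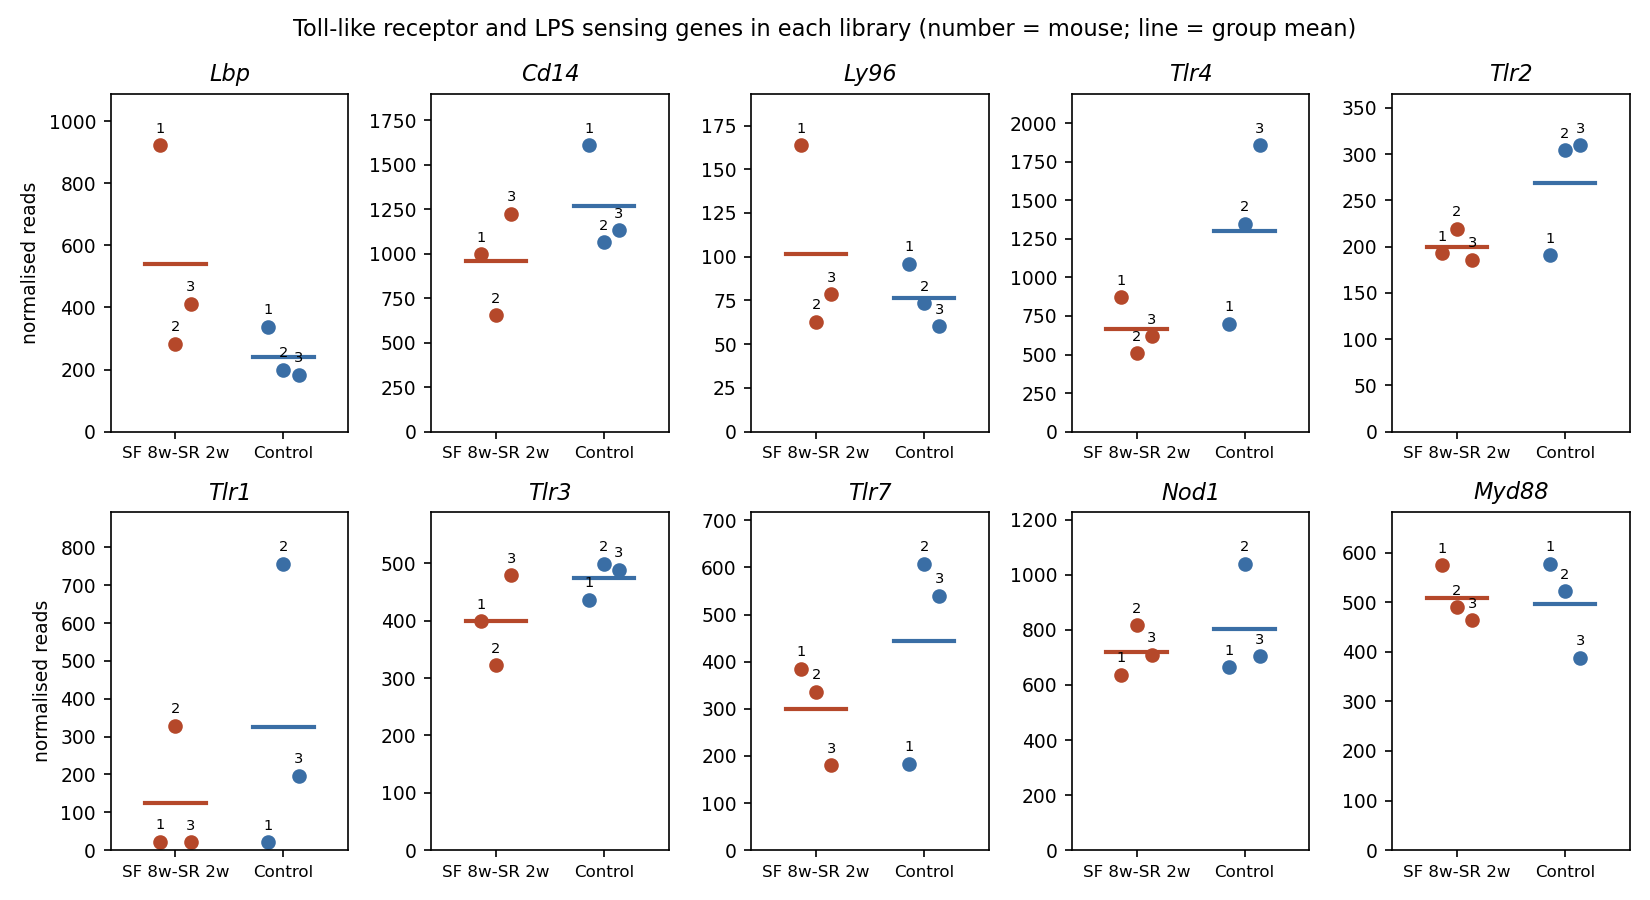
Normalised reads of the 10 genes, with 1 panel per gene, an axis that starts at 0, SF 8w-SR 2w mice left of Control mice, 1 point per mouse with its number and a line at the group mean (n = 3 each). The groups overlap in every panel, Tlr1 splits into high and low libraries within each group, and Lbp is highest in SF 8w-SR 2w 1 at 923.

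Lbp, the LPS carrier, had 923, 284 and 412 normalised reads in SF 8w-SR 2w mice 1 to 3, against 338, 200.1 and 183 in Control mice 1 to 3. SF 8w-SR 2w 1 stood above all other libraries, and SF 8w-SR 2w 2 lay below Control 1, so the groups overlapped. The means were 539 ± 338 in SF 8w-SR 2w mice and 240.2 ± 85.0 in Control mice (SD, n = 3 each), a log2 difference of 1.04 with an unadjusted 95% interval of 0.04 to 2.04 (limma adjusted p = 0.697). Without SF 8w-SR 2w 1 the log2 difference was 0.56 (limma adjusted p = 0.875, against 0.139 to 0.972 over all alternatives). That library was also the highest in skeletal muscle markers, of which 11 of 11 were higher in SF 8w-SR 2w mice on average, with sums of 747 to 98206 normalised reads in SF 8w-SR 2w mice and 583 to 13178 in Control mice. Ckm and Myh4 were among the muscle genes listed at 0 in SF 8w-SR 2w 3 and in Control 3. Without SF 8w-SR 2w 1 the median log2 difference of the muscle markers turned to -0.55, and without Control 3 it was 0.27, against 1.57 with all 6 mice. With the muscle marker score as a covariate the Lbp difference was 0.85. Without the library highest in muscle markers in each group it was 0.46, the lowest of the 22 alternatives. SF 8w-SR 2w 1 also had the highest sums of adipocyte, macrophage, and progenitor and fibroblast markers, at 985205, 33232 and 92259 normalised reads. The part of muscle or of these cells in the Lbp level was not tested.

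Cd14, the LPS co-receptor, had 997, 654 and 1224 normalised reads in SF 8w-SR 2w mice, against 1610.4, 1065 and 1133 in Control mice. SF 8w-SR 2w 3 lay above Controls 2 and 3, while SF 8w-SR 2w 2 was the lowest library of all. The log2 difference was -0.43 with an interval of -1.09 to 0.24 (limma adjusted p = 0.702), and over the 22 alternatives it ranged from -0.71, with trends on GC content and length removed, to -0.18 without SF 8w-SR 2w 2.

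Ly96, which encodes MD-2, the LPS-binding partner of TLR4, was the least counted of the 10 on average (mean over libraries), with 164, 63.0 and 78.6 normalised reads in SF 8w-SR 2w mice, against 95.9, 73.5 and 60.2 in Control mice. SF 8w-SR 2w 1 was high, as it was for Lbp, and the other 5 libraries lay between 60.2 and 95.9. The log2 difference was 0.31 with an interval of -0.75 to 1.37 (limma adjusted p = 0.841), and it turned to -0.094 without SF 8w-SR 2w 1.

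Tlr4, the LPS receptor itself, had 871, 508 and 618 normalised reads in SF 8w-SR 2w mice, against 699, 1349.7 and 1858 in Control mice. Controls 2 and 3 were the high libraries, and Control 1 lay below SF 8w-SR 2w 1. The means were 666 ± 186 in SF 8w-SR 2w mice and 1302 ± 581 in Control mice (SD, n = 3 each), a log2 difference of -0.89 with an unadjusted interval of -1.73 to -0.06 (limma adjusted p = 0.697). Without Control 1 the log2 difference was -1.28 and the limma adjusted p was 0.0517, the lowest for any of the 10 genes over the alternatives, which for Tlr4 ran up to 0.972. Without Control 3 the log2 difference was -0.58 (limma adjusted p = 0.972). In the fit without Control 1, 3.79% of all genes were called, and 0 of the 10. After removal of each library's trends on GC content and length, the Tlr4 difference was -0.39 (limma adjusted p = 0.853). The longest Tlr4 transcript has a GC content of 39.4% and that of Lbp 53.2%, and the part of base composition in these differences was not tested beyond that fit.

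Tlr2, the lipopeptide receptor, had 193, 219 and 186 normalised reads in SF 8w-SR 2w mice, against 191, 304 and 309.7 in Control mice. The 3 SF 8w-SR 2w mice and Control 1 lay close together, and Controls 2 and 3 were higher. Of 13 neutrophil markers 11 were lower in SF 8w-SR 2w mice, with sums of 1095 to 4154 normalised reads in SF 8w-SR 2w mice and 2881 to 11643 in Control mice, and Ly6g, Mpo and Camp were listed at 0 in SF 8w-SR 2w 1 and 3 and in Control 1. Ltf, the most abundant of these markers, is also in the mammary epithelium list. By sum, Control 1 at 4704 and SF 8w-SR 2w 2 and 3 at 4154 and 3836 lay above Control 3 at 2881. The part of neutrophils in the Tlr2 level was not tested. The difference in Tlr2 on the log2 scale was -0.40 with an interval of -1.10 to 0.31 (limma adjusted p = 0.723).

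Tlr1, a partner of TLR2, varied most, with 21.8, 329 and 20.8 normalised reads in SF 8w-SR 2w mice, against 21.3, 757 and 197 in Control mice. The highest library was 36.5 times the lowest, against 5.05 times for Lbp and 1.67 times for Tlr2. SF 8w-SR 2w 2 and Controls 2 and 3 were high, and these were the 3 libraries high in B and plasma cell markers, of which 19 of 19 were lower in SF 8w-SR 2w mice on average. The same 3 libraries were high in T and NK cell markers, 17 of 18 of which were lower in SF 8w-SR 2w mice, with sums of 898 to 10116 normalised reads in SF 8w-SR 2w mice and 1376 to 9879 in Control mice. They were also high in lymph node stroma markers, 7 of 10 of which were lower, with sums of 1111 to 7675 in SF 8w-SR 2w mice and 1285 to 8197 in Control mice, and Ccl19, Glycam1 and Chst4 were listed at 0 in SF 8w-SR 2w 1 and 3 and in Control 1. Which of these cells the Tlr1 level follows was not tested. The 3 low libraries rested on 21, 23 and 20 recovered reads, in SF 8w-SR 2w 1, SF 8w-SR 2w 3 and Control 1. The log2 difference was -1.45 with an interval of -4.43 to 1.52 (limma adjusted p = 0.753). It was -0.06 with the B and plasma cell marker score as a covariate and -0.28 without Control 2. Tlr1 and its neighbour Tlr6 have closely related sequences, so reads from shared stretches may not be told apart by gene.

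The proteins of Tlr1 and Tlr2 act as a pair, while the transcripts differed in how much they varied between libraries, so the 250 bases before their start sites are shown side by side, taken from RefSeq on GRCm38.p6. The Tlr1 window shown lies at chr5:64933559-64933808 and the Tlr2 window at chr3:83841609-83841858, both on the minus strand. A second Tlr1 window, at chr5:64932700-64932949, held no match of the motifs searched and is not shown. Capitals mark matches to a motif on either strand.
Tlr1: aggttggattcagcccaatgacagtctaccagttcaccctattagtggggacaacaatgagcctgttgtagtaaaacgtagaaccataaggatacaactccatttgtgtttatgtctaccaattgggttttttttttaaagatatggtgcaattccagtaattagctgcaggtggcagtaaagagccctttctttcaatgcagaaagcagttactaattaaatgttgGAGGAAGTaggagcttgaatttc
Tlr2: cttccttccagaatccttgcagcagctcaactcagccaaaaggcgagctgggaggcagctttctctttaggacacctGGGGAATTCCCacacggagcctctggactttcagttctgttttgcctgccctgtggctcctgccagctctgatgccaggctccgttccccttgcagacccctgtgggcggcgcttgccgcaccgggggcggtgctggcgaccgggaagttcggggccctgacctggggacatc
The capitals in Tlr1 are GAGGAAGT, core letters recognised by PU.1, a transcription factor of myeloid and B cells, at bases -23 to -16 from the start, which 2.44% of 32851 promoter windows of the same length held. The capitals in Tlr2 are overlapping matches to the NF-kB consensus between bases -173 and -163, which 7.25% of windows held. The third motif searched was the interferon-stimulated response element, spelled GAAA, any 2 bases, GAAA, which 2.98% of windows held. Tlr3 held an NF-kB match, Myd88 an interferon-stimulated response element match at bases -40 to -31, and the 2 Nod1 windows and a second Tlr1 window held 0 matches of the motifs searched. A match is a description of letters and shows no binding.

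Tlr3, the endosomal receptor for double-stranded RNA, had 399, 322 and 479 normalised reads in SF 8w-SR 2w mice, against 437, 499.6 and 489 in Control mice. SF 8w-SR 2w 3 lay inside the range of the Control mice. The log2 difference was -0.26 with an interval of -0.85 to 0.32 (limma adjusted p = 0.761), and it turned to 0.24 with trends on GC content and length removed. An annotated transcript on the opposite strand, Gm45542, overlaps Tlr3, and the labels do not say whether counting used the strand.

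Tlr7, the endosomal receptor for single-stranded RNA, had 385, 336 and 181 normalised reads in SF 8w-SR 2w mice, against 183, 608 and 540.3 in Control mice. SF 8w-SR 2w 3 and Control 1 were the low libraries, so each group held a low one. These 2 libraries were also the lowest in macrophage markers, whose 20 genes summed to 33232, 26178 and 11938 normalised reads in SF 8w-SR 2w mice and 18717, 32726 and 27823 in Control mice. Of these markers 13 were lower and 7 higher in SF 8w-SR 2w mice. Marco, a scavenger receptor of some macrophages, was listed at 0 in SF 8w-SR 2w 3. The log2 difference of Tlr7 was -0.45 with an interval of -1.54 to 0.63 (limma adjusted p = 0.771), and it was -0.25 with the macrophage score and -0.09 with the B and plasma cell score as a covariate. It ranged from -1.001 without Control 1 to -0.13 without SF 8w-SR 2w 3, and it was -0.03 with trends on GC content and length removed.

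Nod1, the cytosolic peptidoglycan sensor, had 637, 817 and 711 normalised reads in SF 8w-SR 2w mice, against 665, 1041 and 704 in Control mice. Control 2 was the high library and the other 5 lay between 637 and 817. On the log2 scale the difference was -0.13 with an interval of -0.72 to 0.45 (limma adjusted p = 0.878).

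Myd88, the shared adaptor, had 574, 489 and 463 normalised reads in SF 8w-SR 2w mice, against 578, 522 and 388 in Control mice. It had the narrowest range of the 10, with the highest library 1.49 times the lowest, and the groups lay across each other. Its log2 difference was 0.05 with an interval of -0.53 to 0.64 (limma adjusted p = 0.958). Acaa1a overlaps Myd88 on the opposite strand, so reads in the overlap could not be told apart by gene if strand was not used.

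**Figure D2:**
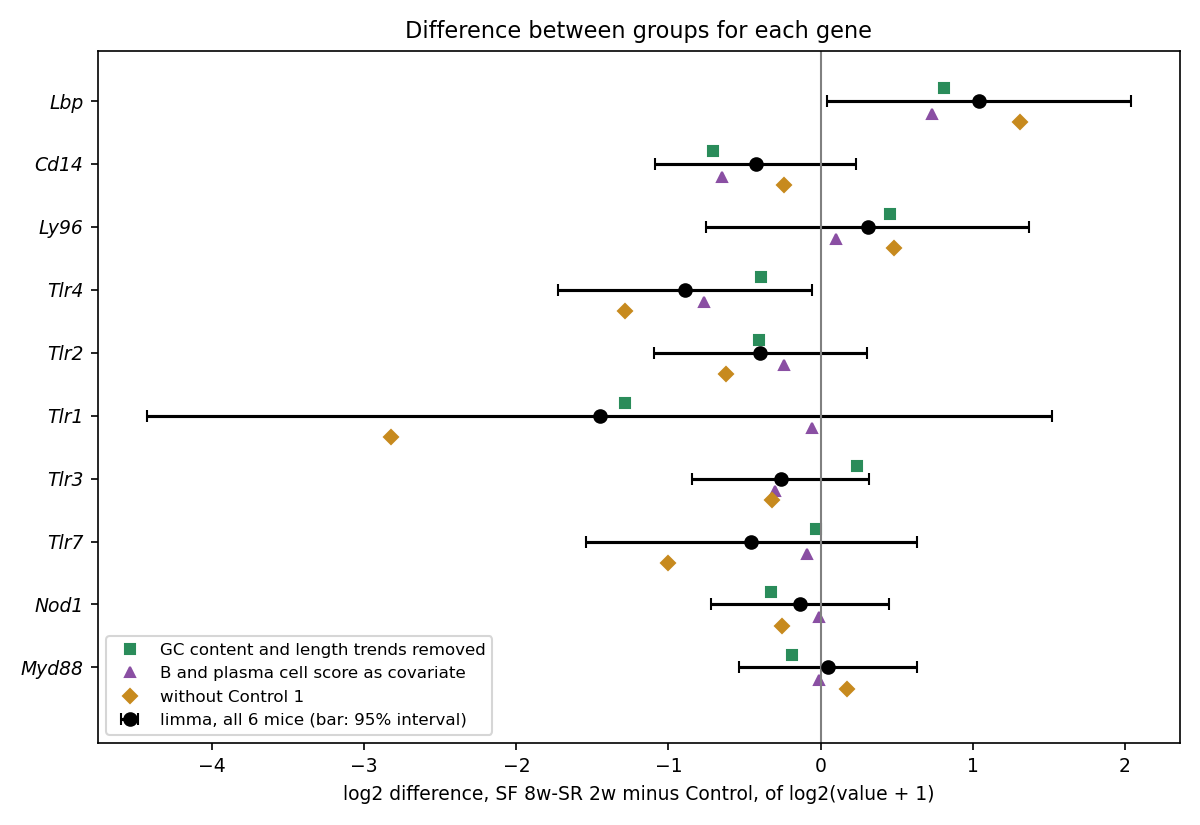
Log2 difference of each gene, SF 8w-SR 2w minus Control, on the x axis, as a circle with its unadjusted 95% interval from limma with all 6 mice, beside the estimates of 3 alternative fits. The intervals of Lbp and Tlr4 do not cross 0 before adjustment, and Tlr1 has the widest, from -4.43 to 1.52.

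The level of different genes was compared per kb of annotated exon. Cd14 was the most abundant, averaging 553 ± 166 normalised reads per kb in SF 8w-SR 2w mice and 733 ± 172 in Control mice (SD, n = 3 each). Its lowest library, at 378, lay above the highest library of every other gene, which was Tlr4 at 334 in Control 3. By the mean of all 6 libraries the order then ran Myd88 at 195, Tlr4 at 177, Nod1 at 150.1, Tlr7 at 91.2, Ly96 at 87.3, Tlr3 at 84.1, Lbp at 80.7, Tlr2 at 77.6 and Tlr1 at 67.1 normalised reads per kb. Each of these 9 genes overlapped its neighbours in that order across libraries. With the median transcript length in place of the exon union, Nod1 came first at 1132 and Cd14 second at 888.

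**Figure D3:**
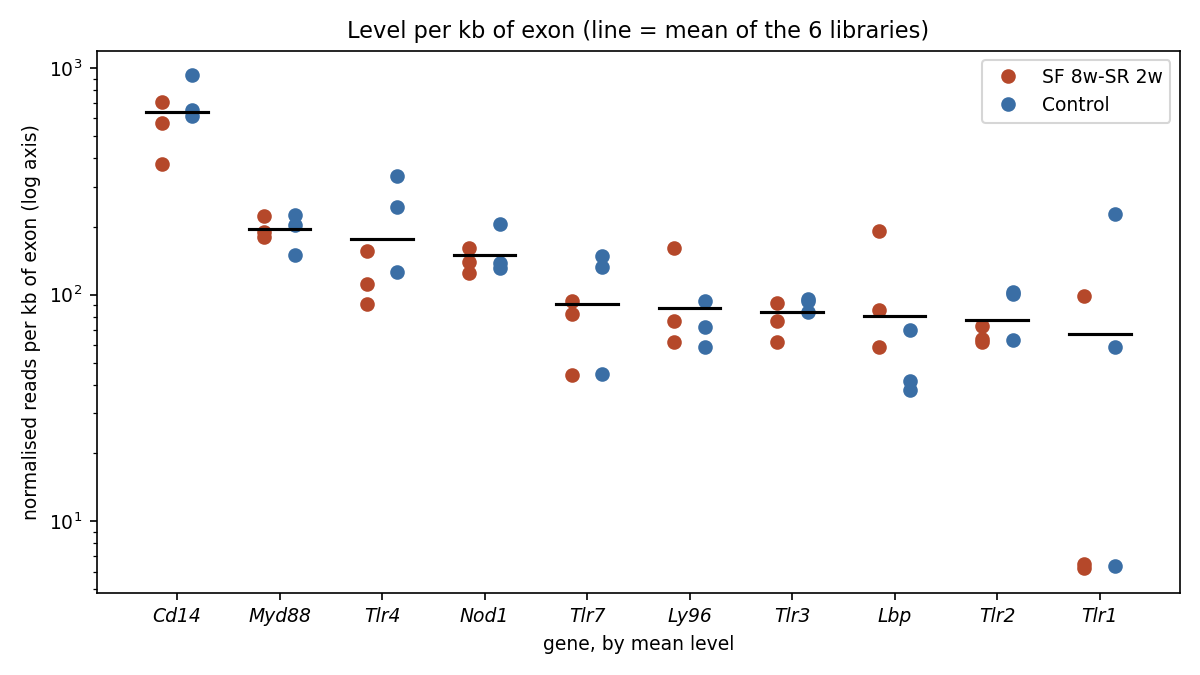
Normalised reads per kb of exon on a log axis for each gene, ordered by the mean of the 6 libraries (black line), with SF 8w-SR 2w points left of Control points. Cd14 stands above all others, and Tlr1 spans from 6.2 to 226 between libraries.

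The 10 genes did not share 1 pattern across libraries. Lbp and Ly96 were highest in SF 8w-SR 2w 1, at 1.47 and 0.96 above their own mean on the log2 scale. Tlr4 and Tlr2 were highest in Control 3, at 1.07 and 0.44, with Control 2 next at 0.61 and 0.41. Tlr1, Tlr7 and Nod1 were highest in Control 2, at 3.07, 0.86 and 0.47, and Cd14 was highest in Control 1, at 0.58. For Tlr2, Tlr4 and Tlr7, Control 1 lay within the range of the SF 8w-SR 2w mice, and Controls 2 and 3 lay above all 3 of them.

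**Figure D4:**
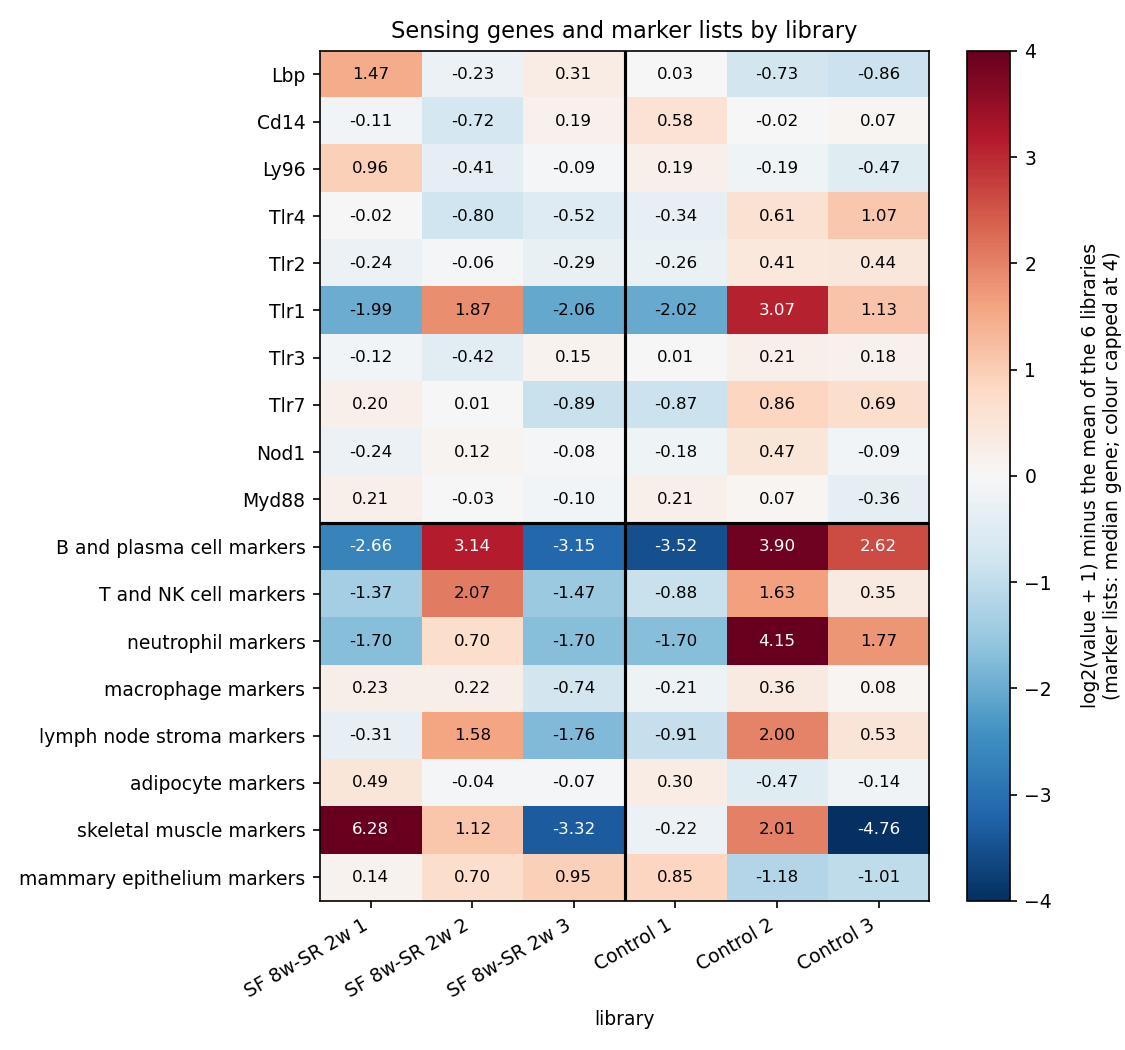
Log2(value + 1) of each gene minus its mean over the 6 libraries, with SF 8w-SR 2w columns left of Control columns, and below the line the median of the same measure over each marker list (colour capped at 4). In all 6 libraries the Tlr1 row has the sign of lymph node stroma, neutrophil, T and NK cell, and B and plasma cell rows. The neutrophil median is the same, -1.70, in SF 8w-SR 2w 1 and 3 and Control 1, where Ly6g, Mpo and Camp are at 0. Lbp is highest in the library with the highest skeletal muscle and adipocyte medians, 6.28 and 0.49 in SF 8w-SR 2w 1.

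For each gene the 3 genes with the most similar profile were taken from 12261 others with a mean of at least 50, by the root mean square difference of the centred log2 values over the 6 libraries. Nearest to Tlr1 was Slamf6, a lymphocyte surface receptor, at 0.16, followed by Gpr174, a lymphocyte G protein-coupled receptor, at 0.31 and B3gnt5 at 0.34, against a spread of Tlr1 itself of 2.10. Nearest to Tlr4 were Wwp1 at 0.10, Gda at 0.11 and Lpar4 at 0.13, with a spread of 0.65. Nearest to Tlr7 were Igfbp3, Dpp4 and Slc2a3 at 0.15 to 0.20, and nearest to Lbp were Kdelr3, Ifitm3 and Rtn2 at 0.18 to 0.19. Cd14 was nearest to Car8, Fdft1 and Cryz at 0.13 to 0.15, and Ly96 to Anapc10, Prdx4 and Mettl7a1 at 0.11 to 0.14. Nearest to Tlr2 were Ddx21, Fkbp15 and G3bp1, and nearest to Tlr3 were Fbxo28, AI597479 and Siae, at 0.05 to 0.06. Myd88 was nearest to Pitpna, Mad2l2 and Mbd2, and Nod1 to Tardbp, Med16 and Slc7a7, at 0.05 to 0.07. Within 0.25 lay 1772 genes for Tlr2, 2154 for Tlr3, 1780 for Myd88 and 1403 for Nod1. The spreads of these genes were 0.31, 0.22, 0.20 and 0.24, so a flat profile would also lie within 0.25 of Tlr3, Myd88 and Nod1. For the genes of larger spread the count was 149 for Ly96, 106 for Tlr4, 98 for Cd14, 12 for Lbp, 10 for Tlr7 and 1 for Tlr1.

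The rest of the pathway was read from fixed lists, each described by counts beside all genes tested, of which 48.4% had a log2 difference below 0. For none of these pathway lists did any gene pass the threshold. Of the 7 other Toll-like receptor genes, 6 were lower and 1 higher in SF 8w-SR 2w mice, with a median log2 difference of -0.46. Tlr8, a neighbour and relative of Tlr7, had -0.40 (SE 0.36), and Tlr9, the DNA receptor of B cells and plasmacytoid dendritic cells, had -1.49 (SE 0.88). Tlr9 had 40.4, 267 and 46.0 normalised reads in SF 8w-SR 2w mice, against 65.0, 529 and 331 in Control mice. It was high in the same 3 libraries as Tlr1.

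Of the 11 genes for trafficking and co-receptors, 8 were lower and 3 higher, with a median of -0.17 that was 0.04 without Control 2. The fatty acid and lipid receptor Cd36 had -0.25 (SE 0.44), and Hsp90b1, the chaperone that folds Toll-like receptors, had -0.05 (SE 0.25). Of the 23 adaptors and kinases, 16 were lower and 7 higher, with a median of -0.22. Tab2, which links TRAF6 to the kinase TAK1, had -0.33 (SE 0.27), and Irak1, a kinase recruited by MYD88, had -0.06 (SE 0.21).

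Of the 19 measured genes for LPS handling and cytosolic sensing, 13 were lower and 6 higher, with a median of -0.30. Pltp, a phospholipid transfer protein related to LBP, had 0.22 (SE 0.23), and Scarb1, a lipoprotein and LPS scavenger receptor, had 0.64 (SE 0.29). The 10 NF-kB and IRF transcription factor genes were 5 lower and 5 higher, with Nfkb1 at -0.18 (SE 0.28) and Rela at 0.21 (SE 0.22).

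The list of 20 negative regulators was 9 lower and 11 higher, with a median of 0.24 that turned to -0.06 with GC content and length trends removed. Tollip, an inhibitor of IRAK1, had -0.13 (SE 0.25), and Trafd1, a feedback inhibitor of TLR signalling, had 0.42 (SE 0.26). Of 24 genes that LPS induces in macrophages, 11 were lower and 13 higher, with a median of 0.13 that was -0.01 without Control 3 and 0.37 without Control 2. Vcam1, an adhesion molecule of endothelium and stroma, had -1.25 (SE 0.49), and Sod2, the mitochondrial superoxide dismutase, had 0.03 (SE 0.25). Low counts limit this list, since 8 of its 24 genes were listed at 0 in Control 3, among them Il6, Il10 and Ptgs2.

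**Figure D5:**
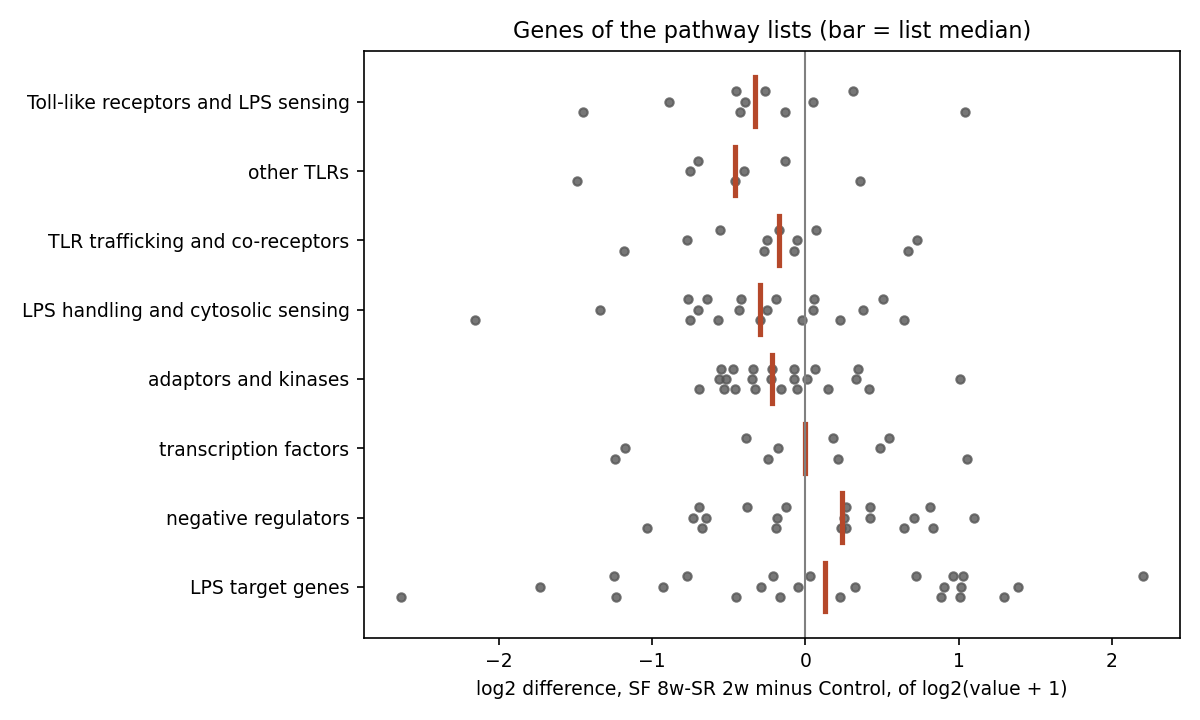
Log2 difference of every measured gene, SF 8w-SR 2w minus Control, for the 10 genes (top row) and the 7 pathway lists, with a bar at each list's median. The medians run from -0.46 for the other Toll-like receptors to 0.24 for the negative regulators, and each list has genes on both sides of 0.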

How the data were processed

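Per the submitters' processing notes, mm8 is the build named, beside featureCounts 1.5.0-p3, HISAT2 2.0.5 and CASAVA. A signal value for every gene in each library makes up the deposited table. Each value was a whole multiple, within 0.02 reads, of the smallest value above 0 in its column, so the authors' signal behaves as reads divided by 1 factor per library, and whole reads were recovered for 100% of values. Between 15610201 and 19703569 reads per library set the precision of the signal.

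The values were tested with limma 3.58.1 (R 4.3.3) with an intensity trend on log2(value + 1), for the 22290 genes averaging 1 or more, at a threshold of 0.05 after Benjamini-Hochberg adjustment over them. A log2 difference is on this scale, which understates changes of low genes. edgeR 4.0.16 and DESeq2 1.42.0 on recovered reads called 0 and 0 genes, with 1018 and 1251 at an unadjusted p under 0.05 against 1201 by limma and 5349 by limma-voom with quality weights. Exon length and GC content came from GENCODE M21, whose build is not mm8, so no coordinates of the table are given. Symbols were missing for 33 identifiers. RefSeq held promoters for Tlr1, Tlr2, Tlr3, Nod1 and Myd88.

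The 10 genes and all lists were chosen with earlier results of these data known. Named from each pathway list were genes past the threshold, otherwise its 2 most abundant. The 3 genes nearest in profile were named for each of the 10. Other named genes were chosen after their values were seen. Bpi and Ifnb1 of the pathway lists are not analysed here. Alternatives covered pseudocount, filter, scaling, test, replicate block, each library left out, marker scores, GC content and length, and transcript length.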

Additional observations from a re-analysis of the deposited data

How the results depend on the processing

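None of the 10 genes passed the threshold under any of the 22 alternatives fitted. Genes called over the whole table numbered 0 with all 6 mice and ranged from 0 to 844 with 1 mouse left out, the 844 without Control 1. Cd14, Lbp, Tlr2, Tlr4 and Tlr7 kept their direction throughout. With 1 mouse left out, the log2 difference ranged from -0.094 to 0.59 for Ly96, from -0.12 to 0.17 for Myd88 and from -0.25 to 0.069 for Nod1, and for Tlr1 from -2.83 without Control 1 to -0.28 without Control 2. Myd88 turned to -0.011 with the B and plasma cell score, -0.042 with the skeletal muscle score and -0.19 with GC content and length trends removed, with or without the replicate block, and Tlr3 turned to 0.24 in both fits with these trends removed. Without the library highest in muscle markers in each group (SF 8w-SR 2w 1 and Control 2), an alternative chosen after seeing the data, Tlr1 had 0.35, Ly96 -0.11 and Nod1 0.15, and 0 genes were called. The cause of these turns was not tested. With 1 mouse left out, list medians ranged from -0.36 to 0.04 for trafficking and co-receptors, -0.34 to -0.06 for adaptors and kinases, -0.44 to -0.08 for LPS handling, 0.03 to 0.23 for negative regulators and -0.01 to 0.37 for LPS target genes, whose median was also -0.0079 among genes averaging 10 or more. Library size scaling moved the median of all genes to 0.14, and the directions of the 10 were unchanged by it.

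What mice of the same replicate number share is not stated by the labels. The correlation across genes of same-numbered libraries' deviations was 0.18, 0.39 and 0.04 for numbers 1, 2 and 3. SF 8w-SR 2w 1 and 2 correlated best with the Control of their own number. SF 8w-SR 2w 3 correlated best with Control 1 at 0.21. These values cannot decide whether the numbers mark a pairing. With the replicate block 0 genes were called, with 2676 at an unadjusted p under 0.05, and the adjusted p was 0.396 for Tlr4 and 0.370 for Lbp by limma. With the median transcript length the levels per kb were 619 for Tlr3, 784 for Tlr4, 193 for Tlr7 and 888 for Cd14. They were 141 for Ly96, 242 for Lbp, 256 for Myd88 and 1132 for Nod1. The level of Tlr1 moved by less than its spread, to 80.7, and that of Tlr2 stayed at 77.6.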

Other observations

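Ratios of normalised reads between the LPS sensing genes were computed within each library, after the values of the single genes had been seen. The ratio of Ly96 to Tlr4 was 0.188, 0.124 and 0.127 in SF 8w-SR 2w mice 1 to 3, against 0.137, 0.0544 and 0.0324 in Control mice 1 to 3, so Control 1 lay among the SF 8w-SR 2w mice. The ratio of Cd14 to Tlr4 was 1.15, 1.29 and 1.98 in SF 8w-SR 2w mice, against 2.30, 0.789 and 0.610 in Control mice, so both extremes were Control mice. The ratio of Lbp to Tlr4 was 1.06, 0.558 and 0.666 in SF 8w-SR 2w mice, against 0.483, 0.148 and 0.0983 in Control mice, so the groups did not overlap. This ratio joins Lbp, higher in SF 8w-SR 2w mice on average, to Tlr4, lower on average, so it is no separate evidence. None of these ratios was tested.

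The ratio of Tlr1 to Tlr2 was 0.113, 1.502 and 0.112 in SF 8w-SR 2w mice, against 0.112, 2.49 and 0.637 in Control mice. The 3 libraries low in B and plasma cell markers had nearly the same ratio, and the 3 high ones differed among themselves.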
